A study of Homo sapiens with 4 samples.

Results

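The genes of the mitotic entry switch were examined by RNA-seq in K562, a human cell line from a leukaemia that keeps erythroid and megakaryocytic traits. The set holds 9 genes chosen by symbol: the kinases WEE1 and PKMYT1, the phosphatases CDC25A, CDC25B and CDC25C, the kinase CDK1, the cyclins CCNB1 and CCNB2, and the phosphatase CDKN3. All 9 were found among the 23615 genes of the deposited table. The cells received 5 µM clofarabine in 0.005% DMSO (2 samples, libraries C0 and C1) or DMSO alone (2 samples, libraries V0 and V1), and all samples were taken at 3 h. Clofarabine, an analogue of deoxyadenosine, blocks ribonucleotide reductase and DNA polymerases once it is phosphorylated. Both groups are the same cell line, and separate cultures are not stated in the labels. A p-value here therefore reflects the spread of these particular samples, which may be technical. The deposited letters C and V were taken to mean clofarabine and vehicle; no label spells them out, and with the letters swapped each rise here would be a fall. In unsorted cultures, fewer cells at a stage of the cell cycle and less RNA per cell cannot be told apart.

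CDK1 bound to cyclin B is the kinase that drives cells into mitosis. WEE1 in the nucleus and PKMYT1 on internal membranes hold the complex inactive by phosphorylating CDK1, and the CDC25 phosphatases remove those phosphates. Active CDK1 in turn switches off WEE1 and switches on CDC25, so that the change is abrupt, and checkpoint kinases that respond to stalled replication forks delay it by acting on CDC25 and WEE1. Transcripts of many of these genes are made mainly in G2, through promoter elements bound by NF-Y, the MuvB complexes with B-MYB, and FOXM1.

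After clofarabine, CCNB1 and WEE1 transcripts fell and CDC25A transcripts rose, while the other 6 genes were not called. CCNB1 fell by 36.7% to 253 ± 6.46 CPM in clofarabine cells, against 399 ± 2.89 CPM in DMSO cells (mean ± SD, n = 2 each; CPM are fragment counts divided by the library total after TMM scaling). WEE1 fell by 24.5% to 93.7 ± 0.534 CPM in clofarabine cells, against 124 ± 5.76 CPM in DMSO cells. CDC25A was 33.9% higher, at 181 ± 5.82 CPM in clofarabine cells and 135 ± 6.59 CPM in DMSO cells. Calls were made with edgeR's quasi-likelihood test at an adjusted p under 0.05 (Benjamini-Hochberg) over all 11761 genes tested, of which 2.57% were called, 1.54% as higher and 1.03% as lower. Of the 9 genes of the switch, all of which passed the filter on low counts, 1 was called as higher and 2 as lower. Their median log2 fold change was −0.23, and 8 of 9 were below 0, beside a median of 0.0020 and 49.4% below 0 over all genes tested. Of those below 0, PKMYT1 (−0.0056) and CDKN3 (−0.0093) lay next to 0 and changed sign when some libraries were left out. The genes were chosen with earlier results of these data known, so the count below 0 is a description only. Among the tested genes with a mean of at least 10 CPM, where all 9 stand, 3.38% were called, 2.05% as higher and 1.33% as lower.

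**Figure D1:**
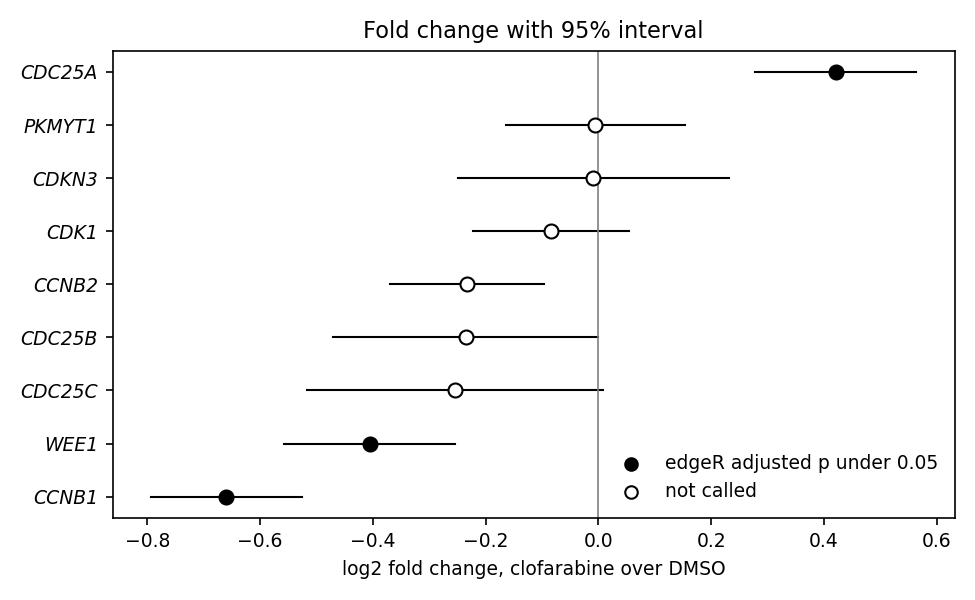
The horizontal axis is the log2 fold change of clofarabine over DMSO and each row is a gene of the switch. Points are edgeR estimates and lines their 95% intervals, with filled points for called genes: CDC25A at 0.42 stands alone above 0, and WEE1 at −0.41 and CCNB1 at −0.66 are the called genes below it.

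Promoter letters are given because genes of the switch moved in different directions and several are known to share promoter elements. RefSeq's table (GRCh38.p14) held start sites for 7 of the 9 genes, all but WEE1, which also fell, and PKMYT1. The 4 genes with a single start are printed, as the 250 bases before it, 5′ to 3′ on the gene's strand. They comprise the gene that rose (CDC25A, chr3:48188418-48188667 on the minus strand), one that fell (CCNB1, chr5:69166900-69167149 on the plus strand) and a pair that were not called (CCNB2, chr15:59104896-59105145 on the plus strand, and CDKN3, chr14:54396757-54397006 on the plus strand). Capitals mark letters searched for on both strands: CCAAT, the box bound by NF-Y, the cell cycle homology region (CHR) as TTTGAA or TTCGAA, to which MuvB complexes bind, and E2F-like letters as TTCCCGC or, with other letters in the middle, as TTGGCGC, or else as TTCGCGC, or again as TTGCCGC.
CDC25A: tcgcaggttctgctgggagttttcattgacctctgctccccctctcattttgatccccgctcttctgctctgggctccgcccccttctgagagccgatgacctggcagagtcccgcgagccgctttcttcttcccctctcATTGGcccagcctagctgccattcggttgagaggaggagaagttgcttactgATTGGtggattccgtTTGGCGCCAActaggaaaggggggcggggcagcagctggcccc
CCNB1: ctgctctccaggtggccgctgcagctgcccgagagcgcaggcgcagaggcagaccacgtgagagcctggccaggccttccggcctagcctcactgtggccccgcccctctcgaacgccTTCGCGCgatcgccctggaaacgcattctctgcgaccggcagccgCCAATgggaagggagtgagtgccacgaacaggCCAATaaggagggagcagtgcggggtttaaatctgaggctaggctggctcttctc
CCNB2: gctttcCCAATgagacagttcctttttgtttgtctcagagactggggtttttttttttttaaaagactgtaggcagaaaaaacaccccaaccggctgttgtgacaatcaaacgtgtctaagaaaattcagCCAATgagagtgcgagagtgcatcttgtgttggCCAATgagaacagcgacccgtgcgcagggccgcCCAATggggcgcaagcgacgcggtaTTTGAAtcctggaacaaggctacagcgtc
CDKN3: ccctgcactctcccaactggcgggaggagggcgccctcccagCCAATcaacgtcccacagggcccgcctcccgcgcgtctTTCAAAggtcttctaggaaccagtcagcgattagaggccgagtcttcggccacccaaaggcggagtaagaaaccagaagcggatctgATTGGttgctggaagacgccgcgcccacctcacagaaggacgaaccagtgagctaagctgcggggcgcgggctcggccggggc
CDC25A held the E2F-like letters TTGGCGC on both strands in overlapping matches that begin 43 and 40 bases before its start, and no CHR letters. CCNB2 held 4 CCAAT boxes and a TTTGAA that begins 29 bases before its start. Its CCAAT boxes nearest the start begin 120, 87 and 54 bases before it, 33 bases apart in both steps. CCNB1 held CCAAT boxes at 87 and 55 bases before its start, 32 bases apart, with the E2F-like letters TTCGCGC and no CHR letters. CDKN3 held 2 CCAAT boxes and 1 CHR match. A match is only an occurrence of letters, and binding was not measured.

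Over the 14 start windows of the 7 genes (300 bases, 50 of them after the start), 10 held a CCAAT box, 7 CHR letters and 7 E2F-like letters. Of all 35116 windows in the table, 34.61% held CCAAT, 16.35% CHR letters and 12.97% E2F-like letters. Several windows of CDK1 and of CDC25C overlap and so share letters. By gene, all 7 had a CCAAT box in at least 1 window, 5 had CHR letters (CDC25B, CDC25C, CDK1, CCNB2 and CDKN3) and 5 had E2F-like letters (CDC25A, CDC25B, CDC25C, CDK1 and CCNB1). The shares above are per window, and no share per gene was computed over all genes. Genes with several windows (CDC25B, CDC25C and CDK1) have more places for a match, so these counts cannot be set against the shares. CDC25A and CCNB1, which were called in opposite directions, both held CCAAT and E2F-like letters and neither TTTGAA nor TTCGAA. Only these letters counted as CHR letters, so a variant with other letters would be missed.

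**Figure D2:**
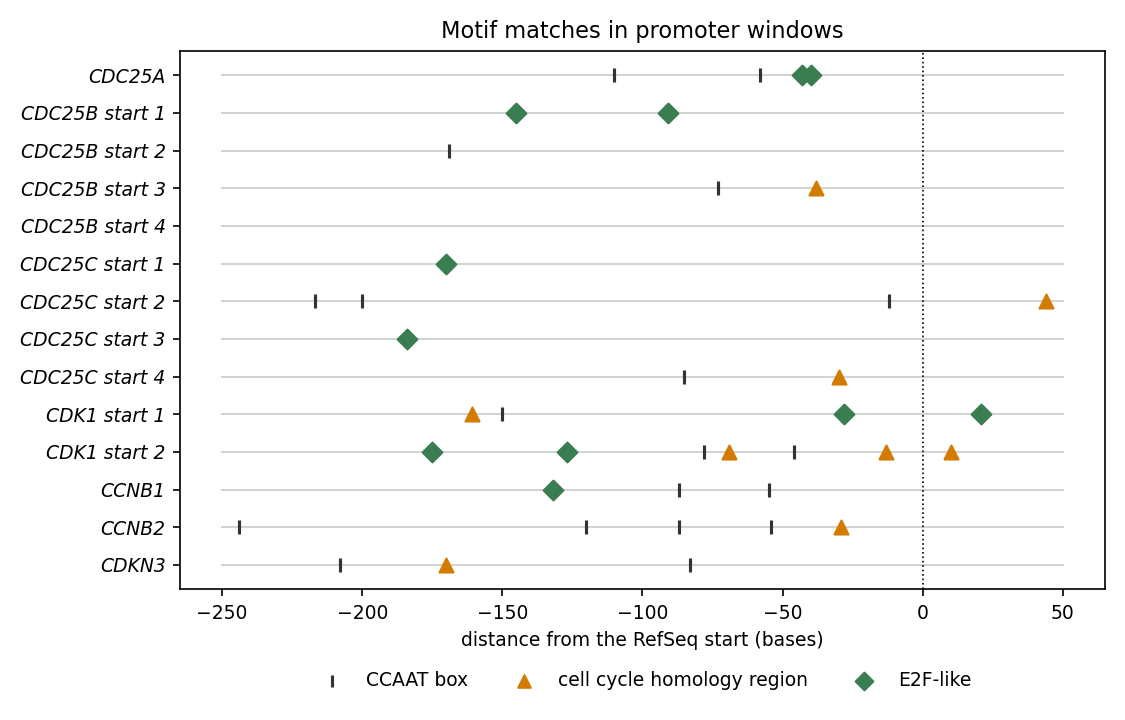
Each row is a start window of a gene of the switch and the horizontal axis is the distance in bases from the RefSeq start. Bars mark CCAAT boxes, triangles CHR letters and diamonds E2F-like letters: the CCNB2 window shows 4 bars and 1 triangle, and CDC25A shows 2 bars and overlapping diamonds.

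The cyclins and their kinase were the most abundant members. Per transcript length, CCNB1 stood at 123 and 127 FPKM (the authors' values, in which fragments are divided by transcript length) in C0 and C1, against 197 and 199 FPKM in V0 and V1. The groups do not overlap, and libraries within a group lie close together. CCNB1, which encodes cyclin B1, had a log2 fold change of −0.66 (SE 0.064, 95% interval −0.79 to −0.53, edgeR adjusted p = 8.5e-07). Of the 121 genes called as lower, 38 changed at least as much as CCNB1, itself included.

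CCNB2 encodes cyclin B2, the partner of CDK1 found mostly at the Golgi. It stood at 153 and 155 CPM in C0 and C1, against 181 and 182 CPM in V0 and V1. The groups do not overlap and the spread within each is narrow, yet the gene was not called over all genes (log2 fold change −0.23, SE 0.066, 95% interval −0.37 to −0.097, edgeR adjusted p = 0.0642). Under 13 of 16 alternatives it was likewise not called, among them DESeq2 (adjusted p = 0.157) and equal depth (adjusted p = 0.0979). It was called as lower under the other 3. These were scaling by library size alone (adjusted p = 0.0171), correction for transcript length (adjusted p = 0.00658) and the replicate number as a block (adjusted p = 0.00405). Scaling by size alone also shifted the median of all genes to −0.035.

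CDK1, the catalytic subunit that both cyclins share, stood at 263 and 264 CPM in C0 and C1, against 292 and 267 CPM in V0 and V1. The clofarabine libraries were nearly equal and V1 lay just above them, with V0 higher. Its log2 fold change was −0.084 (SE 0.067, 95% interval −0.22 to 0.054, edgeR adjusted p = 0.647), and its interval does not reach the estimate for CCNB1. The value was −0.018 without V0 and −0.16 without V1.

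Of the inhibitory kinases, only WEE1 was called. WEE1, a tyrosine kinase, stood at 93.3 and 94.1 CPM in C0 and C1, against 120 and 128 CPM in V0 and V1. The groups do not overlap (log2 fold change −0.41, SE 0.073, 95% interval −0.56 to −0.25, edgeR adjusted p = 0.00231). When V1 was left out its log2 fold change was −0.36 and it was not called (adjusted p = 0.0683), as also on the log2(FPKM + 1) scale (adjusted p = 0.0600) and the log2(FPKM + 0.1) scale (adjusted p = 0.0567). PKMYT1, which phosphorylates the neighbouring threonine as well as the tyrosine, stood at 84.9 and 87.7 CPM in C0 and C1, against 84.4 and 88.9 CPM in V0 and V1. Both clofarabine libraries lie between the DMSO libraries (log2 fold change −0.0056, SE 0.076, 95% interval −0.16 to 0.15, edgeR adjusted p = 0.992), and the sign changed without C0 or without V1.

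Among the phosphatases that activate CDK1, CDC25A rose and the estimates of CDC25B and CDC25C were below 0 and not called. CDC25A, which also acts on CDK2 at the start of S phase and is degraded when checkpoint kinases are active, stood at 185 and 177 CPM in C0 and C1, against 130 and 140 CPM in V0 and V1. The groups do not overlap (log2 fold change 0.42, SE 0.069, 95% interval 0.28 to 0.56, edgeR adjusted p = 8.4e-04), and its call was lost on the log2(FPKM + 1) scale (adjusted p = 0.0524). Of the 181 genes called as higher, 69 changed at least as much as CDC25A, itself included. CDC25B, an early activator of cyclin B complexes at centrosomes, stood at 32.9 and 28.0 CPM in C0 and C1, against 34.0 and 37.1 CPM in V0 and V1 (log2 fold change −0.24, SE 0.11, 95% interval −0.47 to −5.4e-04, edgeR adjusted p = 0.350). CDC25C, which amplifies CDK1 activation and is held in the cytoplasm by 14-3-3 proteins, stood at 20.8 and 25.1 CPM in C0 and C1, against 28.4 and 26.9 CPM in V0 and V1 (log2 fold change −0.25, SE 0.13, 95% interval −0.52 to 0.0076, edgeR adjusted p = 0.372). In both genes the groups did not overlap, but their nearest libraries lay closer together than the clofarabine libraries did to each other. Per length these are the rarest members, and with CDKN3 they had the fewest fragments, between 241 and 648 per library. Leaving out 1 library moved CDC25B between −0.35 (without C0) and −0.12 (without C1), and CDC25C between −0.41 (without C1) and −0.14 (without C0).

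CDKN3, a phosphatase that removes the activating phosphate from CDKs, stood at 29.1 and 27.5 CPM in C0 and C1, against 29.8 and 27.2 CPM in V0 and V1. The clofarabine libraries lie between the DMSO libraries (log2 fold change −0.0093, SE 0.12, 95% interval −0.25 to 0.23, edgeR adjusted p = 0.990), and the sign changed without C1 or without V0. CDKN3 is among the shortest 4.1% of tested transcripts. In the shortest of 10 classes of equal size the median log2 CPM difference was 0.14 for C1 over C0 and 0.018 for V1 over V0. The median log2 fold change of clofarabine over DMSO in that class was 0.090. Length was inferred from fragments over FPKM. With the trend on length removed, CDKN3 had a log2 fold change of −0.093 and was not called (adjusted p = 0.780), and with libraries at equal depth it stood at −0.13 (adjusted p = 0.715).

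The order of levels per length was led by the cyclins and CDK1 in every library. Averaged over the 4 libraries, CCNB1 had 162 FPKM, CDK1 155, CCNB2 121, CDC25A 44.2, CDKN3 44.0, PKMYT1 42.9, WEE1 33.6, CDC25C 12.98 and CDC25B 9.30 FPKM. CCNB1 was above CDK1 in 2 of 4 libraries, both of DMSO, and CDC25A above CDKN3 in 2 of 4, both of clofarabine, so that these neighbours changed places between the groups. The levels of CDKN3 and PKMYT1 also overlapped. CDC25A was the highest of the CDC25 transcripts in every library.

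**Figure D3:**
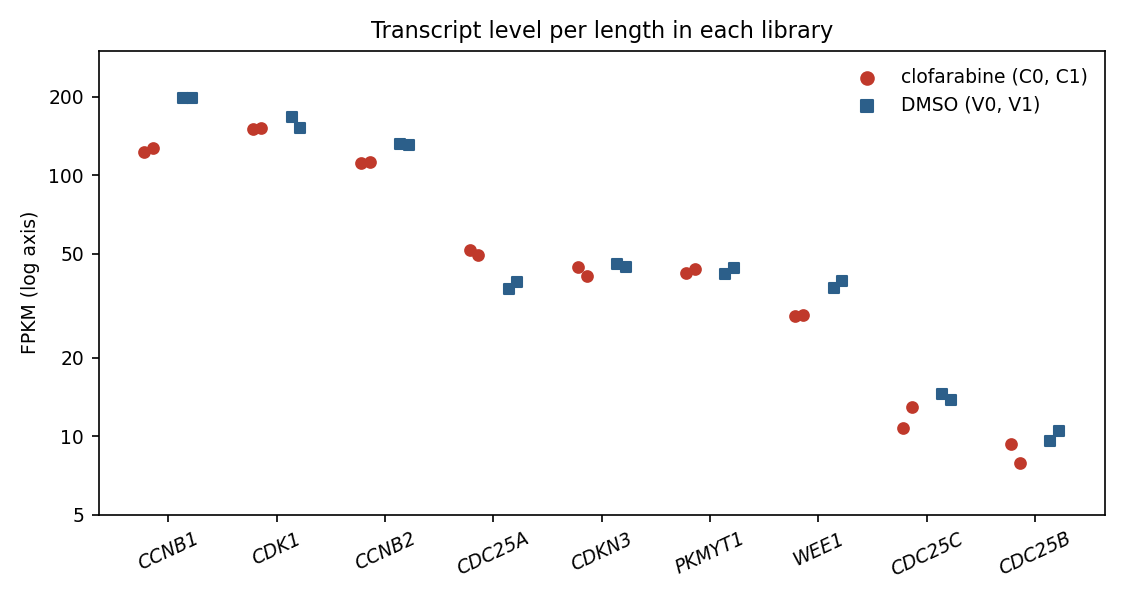
The vertical axis is FPKM on a log scale for each gene of the switch, with a point per library, clofarabine (C0, C1) left of DMSO (V0, V1). CCNB1, CDK1 and CCNB2 stand above 100 FPKM in all libraries, and CDC25B and CDC25C lie below 15 FPKM.

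Ratios between members within a library do not depend on how libraries are scaled to each other. Of 9 pairs examined, 7 had ratios that did not overlap between the groups. All 7 held a called member, and the pairs that overlapped, CDC25B/CDC25C and CDKN3/CDK1, held none. The separation of the 7 is therefore no separate evidence beside the calls, which came from the same libraries. Over all 35959440 pairs of tested genes with a mean of at least 10 CPM, 47.0% did not overlap. Those pairs were not picked around called genes, so the count of 7 is given only as a description. With 2 libraries against 2, the exact two-sided permutation test cannot go below p = 0.333, which each of these 7 pairs reached (0.429 adjusted over the 9 pairs), so that no pair could pass a threshold. The ratio of WEE1 to CDC25A, an inhibitor against an activator of CDK1, was 0.557 and 0.588 in C0 and C1, against 1.01 and 1.01 in V0 and V1, a log2 difference of −0.82. Per length, the pair was thus about equal in DMSO cells, and CDC25A exceeded WEE1 in clofarabine cells. The ratio of CCNB1 to CDK1 was 0.816 and 0.843 in C0 and C1, against 1.18 and 1.30 in V0 and V1, a log2 difference of −0.58. That of CCNB2 to CCNB1 was 0.902 and 0.879 in C0 and C1, against 0.665 and 0.660 in V0 and V1, a log2 difference of 0.43. Per length, cyclin B1 and B2 transcripts stood nearer to equal in clofarabine cells than in DMSO cells.

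The ratio of CDC25A to CDC25B was 5.56 and 6.27 in C0 and C1, against 3.83 and 3.73 in V0 and V1, a log2 difference of 0.64. CDC25A to CDC25C gave 4.83 and 3.80 in C0 and C1, against 2.53 and 2.84 in V0 and V1, a log2 difference of 0.68. In both pairs every clofarabine library was above every DMSO library. CDC25B to CDC25C overlapped between the groups, at 0.869 and 0.606 in C0 and C1, against 0.661 and 0.762 in V0 and V1. For the inhibitory kinases, WEE1 to PKMYT1 was 0.684 and 0.666 in C0 and C1, against 0.885 and 0.897 in V0 and V1, a log2 difference of −0.40. WEE1 to CDK1 was 0.191 and 0.192 in C0 and C1, against 0.221 and 0.259 in V0 and V1, a log2 difference of −0.32, and CDKN3 to CDK1 overlapped, at 0.296 and 0.272 in C0 and C1, against 0.273 and 0.293 in V0 and V1.

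**Figure D4:**
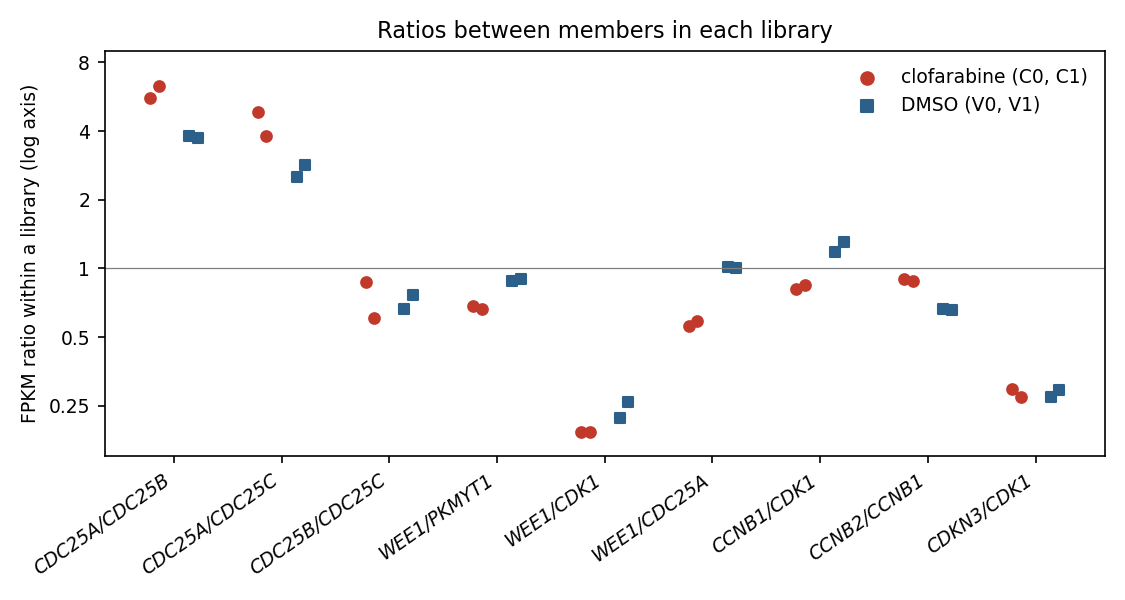
The vertical axis is the ratio of FPKM of a pair of genes within a library, on a log scale, with clofarabine libraries (C0, C1) left of DMSO libraries (V0, V1). The WEE1/CDC25A ratio stands at 0.557 and 0.588 in clofarabine and at 1.01 in both DMSO libraries, while CDC25B/CDC25C and CDKN3/CDK1 overlap.

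The patterns nearest to those of the called members were sought among 8480 other tested genes with a mean of at least 10 CPM, by the distance between gene-centred log2 CPM over the 4 libraries, and are given as a description. Nearest to CCNB1 were RACGAP1 (distance 0.034 log2 units), INCENP (0.051) and FAM83D (0.067), which encode proteins of the central spindle, the chromosomal passenger complex and the mitotic spindle. Nearest to WEE1 were CDK5R1 (0.039), TPX2 (0.046), which encodes a spindle assembly factor, and VWDE (0.052). CDK5R1 was not called (edgeR adjusted p = 0.266). VWDE (edgeR adjusted p = 0.0220) lost its call under 4 of 16 alternatives. These were DESeq2 (adjusted p = 0.113), the log2(FPKM + 1) and log2(FPKM + 0.1) scales (adjusted p = 0.214 and 0.201) and the fit without V1. Nearest to CDC25A were TOPORS (0.050), IRF1 (0.051) and CHURC1 (0.069), of which IRF1, an interferon-regulatory transcription factor, was not called (edgeR adjusted p = 0.135). TOPORS (edgeR adjusted p = 0.0403) lost its call under 9 of 16 alternatives. These included DESeq2 (adjusted p = 0.217), limma-voom (adjusted p = 0.0502) and the fits without C0, V0 or V1. With a library left out its log2 fold change was between 0.41 and 0.47. CHURC1 (edgeR adjusted p = 0.00781) lost its call on the log2(FPKM + 1) and log2(FPKM + 0.1) scales (adjusted p = 0.118 and 0.0995).

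Other genes that act on the switch were followed in 7 lists of 71 genes, all present in the table, of which 67 could be tested. Of these, 4 rose, 4 fell and 59 were not called, with a median log2 fold change of 0.0058. Over all 11761 genes tested, 1.54% were called as higher and 1.03% as lower, with a median of 0.0020. These shares stand beside the counts of each list below. The lists were chosen with earlier results of these data known. Among kinases upstream of the switch, 2 of 10 fell and none rose. AURKA, which primes PLK1, stood at 117 and 115 CPM in C0 and C1, against 220 and 213 CPM in V0 and V1 (log2 fold change −0.90, edgeR adjusted p = 2.9e-08). PLK1, which acts on WEE1 and CDC25C, stood at 135 and 143 CPM in C0 and C1, against 228 and 246 CPM in V0 and V1 (log2 fold change −0.77, edgeR adjusted p = 3.1e-07). The other 8 included the checkpoint kinases, at log2 fold changes of 0.059 for ATR, 0.10 for CHEK1 and −0.023 for CHEK2.

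Of the ubiquitin ligase genes that set cyclin B, WEE1 and CDC25A protein levels, 2 of 11 fell and none rose. CDC20, the activator of the anaphase-promoting complex that targets cyclin B, stood at 111 and 122 CPM in C0 and C1, against 194 and 196 CPM in V0 and V1 (log2 fold change −0.75, edgeR adjusted p = 6.0e-07). UBE2S, a ubiquitin-conjugating enzyme of that complex, had a log2 fold change of −0.47 (edgeR adjusted p = 1.8e-04). BTRC and FBXW11, the receptors through which CDC25A and WEE1 are degraded, had log2 fold changes of −0.067 and 0.052 and were not called.

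Among other cyclins, CDK2 and CDK inhibitors, 3 of 9 tested genes rose and none fell. CCNE2, which encodes cyclin E2, stood at 83.1 and 75.3 CPM in C0 and C1, against 32.6 and 36.4 CPM in V0 and V1 (log2 fold change 1.19, edgeR adjusted p = 5.6e-08). CDKN1A, the CDK inhibitor p21, had a log2 fold change of 0.62 (edgeR adjusted p = 0.00166), and CCNE1, named after its value was seen, one of 0.49 (edgeR adjusted p = 0.00376), with no call on the log2(FPKM + 1) scale (adjusted p = 0.0672) or the log2(FPKM + 0.1) scale (adjusted p = 0.0589). CCNA2, which encodes cyclin A2, was not called at −0.16. CCNA1 had no fragment in any library, and CCNB3, the remaining B-type cyclin, had at most 0.087 CPM.

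In the Greatwall and PP2A-B55 list, whose members govern the phosphatase that opposes CDK1, 1 of 10 tested genes rose and none fell. MASTL, the Greatwall kinase, stood at 38.7 and 38.1 CPM in C0 and C1, against 30.1 and 26.8 CPM in V0 and V1 (log2 fold change 0.44, edgeR adjusted p = 0.0298). Its call was lost without V1 (log2 fold change 0.34, adjusted p = 0.452), in DESeq2 (adjusted p = 0.172), at equal depth (adjusted p = 0.162) and on both FPKM scales (adjusted p = 0.189 and 0.173).

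In the remaining 3 lists edgeR called no gene, and neither did limma-voom or DESeq2. Of 7 tested genes of 14-3-3 proteins, the smallest p was that of SFN, at between 0.357 and 2.11 CPM (log2 fold change 1.20, edgeR adjusted p = 0.343). Its value was 2.22 without V0 and 0.51 without V1. Of 5 genes of the CDK-activating kinase and CKS subunits, it was that of CKS2 (log2 fold change −0.23, edgeR adjusted p = 0.135), which was called after correction for transcript length (adjusted p = 0.00182). Of 15 transcription factors of G2/M genes, it was that of E2F1 (log2 fold change 0.27, edgeR adjusted p = 0.171). FOXM1 stood at a log2 fold change of −0.20 and MYBL2, which encodes B-MYB, at 0.084.

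**Figure D5:**
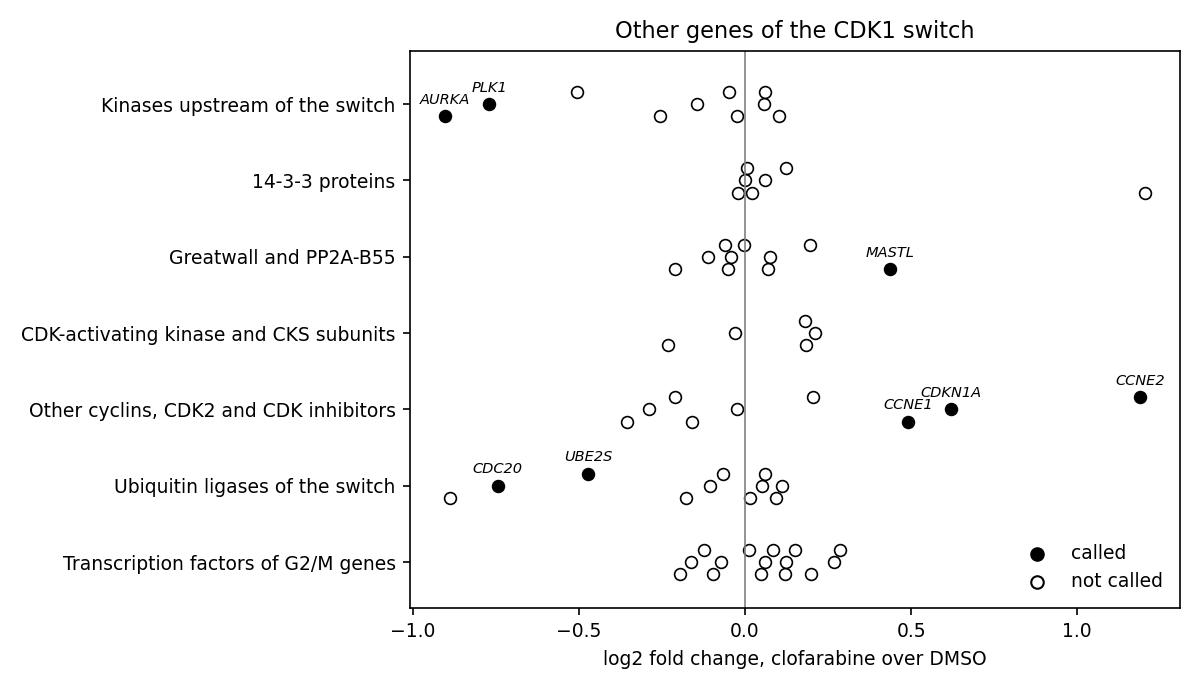
The horizontal axis is the log2 fold change of clofarabine over DMSO for each tested gene of 7 lists, a point per gene, filled where called. The named points are CCNE2, CDKN1A, CCNE1 and MASTL above 0, and AURKA, PLK1, CDC20 and UBE2S below 0.

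The groups did not overlap in CPM in 7 of the 9 switch genes, all but PKMYT1 and CDKN3. Over all genes tested 43.2% did not overlap, and 46.6% of those with a mean of at least 10 CPM.

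Libraries held between 8370550 and 23888755 fragments, with C1 the deepest and V0 the shallowest. Both clofarabine libraries (C0 at 13175630 and C1) were deeper than both DMSO libraries (V0 and V1, the latter at 11119379), so depth differed along with the group. The switch genes had between 241 and 6102 fragments per library. Markers of the K562 lineage were present in both groups, with a summed level of 10 erythroid and megakaryocytic genes, most of it from the globin genes HBE1, HBG1 and HBG2, between 40667 and 49057 FPKM in clofarabine libraries and between 41838 and 45212 FPKM in DMSO libraries. Of the other 7, NFE2, GATA1 and KLF1, which encode erythroid transcription factors and are named after their values were seen, were lower in both clofarabine libraries than in either DMSO library. NFE2 stood at 108 and 113 FPKM in C0 and C1, against 141 and 144 FPKM in V0 and V1 (log2 fold change −0.37, edgeR adjusted p = 0.00196), and was not called on the log2(FPKM + 1) scale (adjusted p = 0.0504). GATA1 stood at 137 and 150 FPKM in C0 and C1, against 174 and 169 FPKM in V0 and V1 (log2 fold change −0.25, edgeR adjusted p = 0.0445), and leaving out C0, V0 or V1 ended its call, at adjusted p of 0.112, 0.263 and 0.254 in that order. KLF1 stood at 104 and 107 FPKM in C0 and C1, against 114 and 127 FPKM in V0 and V1, and was not called (log2 fold change −0.19, edgeR adjusted p = 0.179). The part of these genes in the values of the switch was not tested. The 4 B cell markers summed to at most 0.501 FPKM in clofarabine libraries and 0.372 FPKM in DMSO libraries. Of 4 T cell markers CD2 and CD8A were at 0 and CD3D stood at 30.0 and 35.3 FPKM in C0 and C1, against 31.7 and 29.2 FPKM in V0 and V1. Of 4 epithelial markers KRT5 and KRT14 were at 0, and EPCAM stood at 48.4 and 46.9 FPKM in C0 and C1, against 47.6 and 45.4 FPKM in V0 and V1. The 4 fibroblast markers summed to between 2.48 and 2.55 FPKM in clofarabine libraries and between 2.98 and 3.13 FPKM in DMSO libraries.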

How the data were processed

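RNA of 4 K562 samples was measured. Reads were processed with Cuffdiff 2.2.1 after TopHat2 2.0.13 and cutadapt 1.5, on build hg19, per the submitters' processing notes. For gene annotation, counting strand and poly(A) selection nothing is stated in the sources used here. The deposited table holds the authors' estimated counts of fragments per gene and library, which need not be whole, and the authors' FPKM, per the file headers. Libraries could not be matched to the labels' replicate numbers and entered the main fit only under their group. An alternative fit used the number given to each library in the deposited table as a block. Counts differed between the clofarabine libraries by a chi-square of 6.55 per degree of freedom and between the DMSO libraries by 2.73, above sampling noise, so none were combined. Across the groups it was 4.08 for C0 and V0, less than between the clofarabine libraries, and between 7.34 and 10.8 for the other 3 pairs. The value grows with depth, and at equal depth it was 3.86 between the clofarabine libraries and 3.51 for C0 and V0.

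Estimated counts were rounded. Of 23615 genes, 11761 passed edgeR's filterByExpr (minimum count 10), were scaled by TMM and tested by edgeR's quasi-likelihood test with group as the only term (edgeR 4.0.16, R 4.3.3), with Benjamini-Hochberg adjustment over all of them and a threshold of 0.05. Standard errors are the size of the log2 fold change over the square root of F. The 95% intervals use the test's total degrees of freedom, which add to the residual ones those borrowed from all genes tested.

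The members, lists and tests were chosen with earlier results of these data known. By rule the text names all 9 members, up to 2 called genes per direction of each list (otherwise the gene of smallest p), and the 3 genes nearest to each called member. ATR, CHEK1, CHEK2, BTRC, FBXW11, CCNE1, CCNA1, CCNA2, CCNB3, FOXM1, MYBL2 and the lineage markers are named beyond that rule, with their values known. Promoters are from RefSeq (GRCh38.p14), another build than hg19, and were used for letters only. Alternatives were other scalings (DESeq2's size factors, upper quartile, library size alone), other filters (none, or at least 1 CPM in 2 libraries), other tools (DESeq2 1.42.0, limma-voom with limma 3.58.1), limma-trend on log2(FPKM + 0.1) and on log2(FPKM + 1), thinning to equal depth, removal of a loess trend on transcript length (span 0.3), leaving out each library, and the replicate number as a block.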

Additional observations from a re-analysis of the deposited data

How the results depend on the processing

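The fall of CCNB1 was called under all 16 alternatives, with log2 fold changes between −0.70 and −0.63. That of WEE1 kept its direction under all 16 (between −0.45 and −0.36) and its call under 13, and the rise of CDC25A kept its direction under all 16 (between 0.38 and 0.47) and its call under 15. The number of members called as lower was 1 on the log2(FPKM + 1) and log2(FPKM + 0.1) scales, and between 1 and 2 with a library left out, with 1 without V1. The number called as higher was 0 on the log2(FPKM + 1) scale. Of the 67 tested genes of the lists, 2 rose on the log2(FPKM + 1) scale and 2 on the log2(FPKM + 0.1) scale. Over all genes, 302 were called, against 209 with upper-quartile scaling, 166 with DESeq2, 478 with no filter, 471 with the length trend removed, 56 and 72 on the FPKM scales, 636 without C0 and 130 without V1. Without a library, the spread comes from fewer samples, and the lone sample of a group is assumed to vary like the other group. With a library left out, estimates near 0 changed sign: PKMYT1 ranged between −0.039 without V0 and 0.026 without V1 (0.017 without C0), and CDKN3 between −0.084 without V1 and 0.055 without V0 (0.031 without C1). The log2 ratio CDC25B/CDC25C (0.032) was between −0.23 without C0 and 0.29 without C1 (−0.071 without V0), and CDKN3/CDK1 (0.0047) between −0.057 without C0 and 0.066 without C1 (−0.045 without V0). With library sizes alone the median of all genes shifted to −0.035. The cause of these changes was not tested.

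The labels number the replicates in both groups, but nothing says that a number marks a shared culture or day, and deviations of libraries with the same number in the table (0 or 1) had a correlation of −0.0038 over genes. With the replicate number as a block, 796 genes were called, 7 of the lists rose and 7 fell, and CCNB2 and CKS2 were called as lower (adjusted p = 0.00405 and 0.0259) and E2F1 as higher (adjusted p = 0.0464). KLF1 was called as lower with the block (adjusted p = 0.0277) and with the length trend removed (adjusted p = 0.0388), and GATA1 kept its call under 8 of 16 alternatives. Depth limits CDC25B, CDC25C and CDKN3 most, with between 241 and 648 fragments per library.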
